A study of Mus musculus with 10 samples.

Results

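Chemokines are small secreted proteins that draw leukocytes along a concentration gradient by binding G protein-coupled receptors on their surface. In inflamed colon, CC chemokines bring in monocytes, T cells and other lymphocytes, and they are made by macrophages, activated lymphocytes, stromal cells and epithelium. The genes described here are 9 of the 56691 genes in the table: the ligand genes *Ccl3*, *Ccl4*, *Ccl5*, *Xcl1*, *Ccl2*, *Ccl7* and *Ccl8* and the receptor genes *Ccr1* and *Ccr2*. They were chosen by gene symbol, on the basis of earlier results for the same ceAF against DSS counts. Their differences between the groups are therefore given as a description, without a test.

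Colon RNA of 10 male C57BL/6 mice, 8 weeks old when obtained, was sequenced, 5 from the DSS group and 5 from the ceAF group, and each mouse is named by its group and replicate number (DSS-1, ceAF-1). Dextran sulfate sodium (DSS) in drinking water injures the colon epithelium and causes colitis, and both groups drank 3% DSS for 7 days. The ceAF group then received chick early amniotic fluid (ceAF), taken from eggs incubated for 6 to 8 days, by gavage at 15 mL/kg for 10 days. The study had 8 mice per group, a vehicle gavage of the DSS group is not given in the sources used here, and untreated mice were not analysed here. Between 16275884 and 19901549 reads per DSS mouse and between 14676471 and 18811795 reads per ceAF mouse were counted on genes. Chi-square per gene was 14.7 to 149 over the 20 within-group pairs of libraries, above the value near 1 that counting noise alone gives.

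Levels are given as CPM, read counts relative to library size, with library sizes scaled by TMM (trimmed mean of M-values), and levels of different genes are compared as FPKM, which also divides by gene length. A log2 fold change is the ceAF group against the DSS group, with its standard error (SE) from edgeR's quasi-likelihood fit, and a negative value means a lower level in the ceAF group. To be called, a gene needed an adjusted p-value below 0.05 together with a log2 difference of 1 or more, up or down. By the quasi-likelihood test of edgeR, adjusted by Benjamini-Hochberg, 0 of 16545 genes (0.0%) were called, and 1146 (6.93%) had an unadjusted p-value under 0.05. Without DSS-1 the unadjusted count was 712. DESeq2 called 25 of 16495 genes (0.152%), *Ccl4* and *Ccl5* among them, and gave *Ccl3* no adjusted p-value. Without DSS-5, edgeR called 3 of 16784 genes (0.0179%), *Ccl5*, *Cd3g* and *Lat*, the latter pair named after their values were seen. Since *Ccl4* and *Ccl5* were chosen on this contrast, their calls are no independent test.

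All 9 genes had enough counts to be tested, and 8 of the 9 were lower in the ceAF group, the exception being *Ccl7*. The median log2 fold change of the 9 genes was −0.76, against 0.0076 over all genes tested, of which 8034 of 16545 were lower. In bulk tissue fewer cells of a type and less RNA per cell cannot be told apart. Of the lower genes, *Ccl3* and *Ccl4* differed most, followed by *Ccl5*, while the differences of *Ccr1*, *Ccr2*, *Ccl8*, *Ccl2* and *Xcl1* were smaller than 1 on the log2 scale. For *Ccl4* the highest ceAF mouse was below the lowest DSS mouse, and in the other 8 genes the groups overlapped. Over all genes tested the groups did not overlap in 205 (1.24%), in either direction, and nothing is read from the count of 1 among genes chosen on this contrast.

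**Figure D1:**
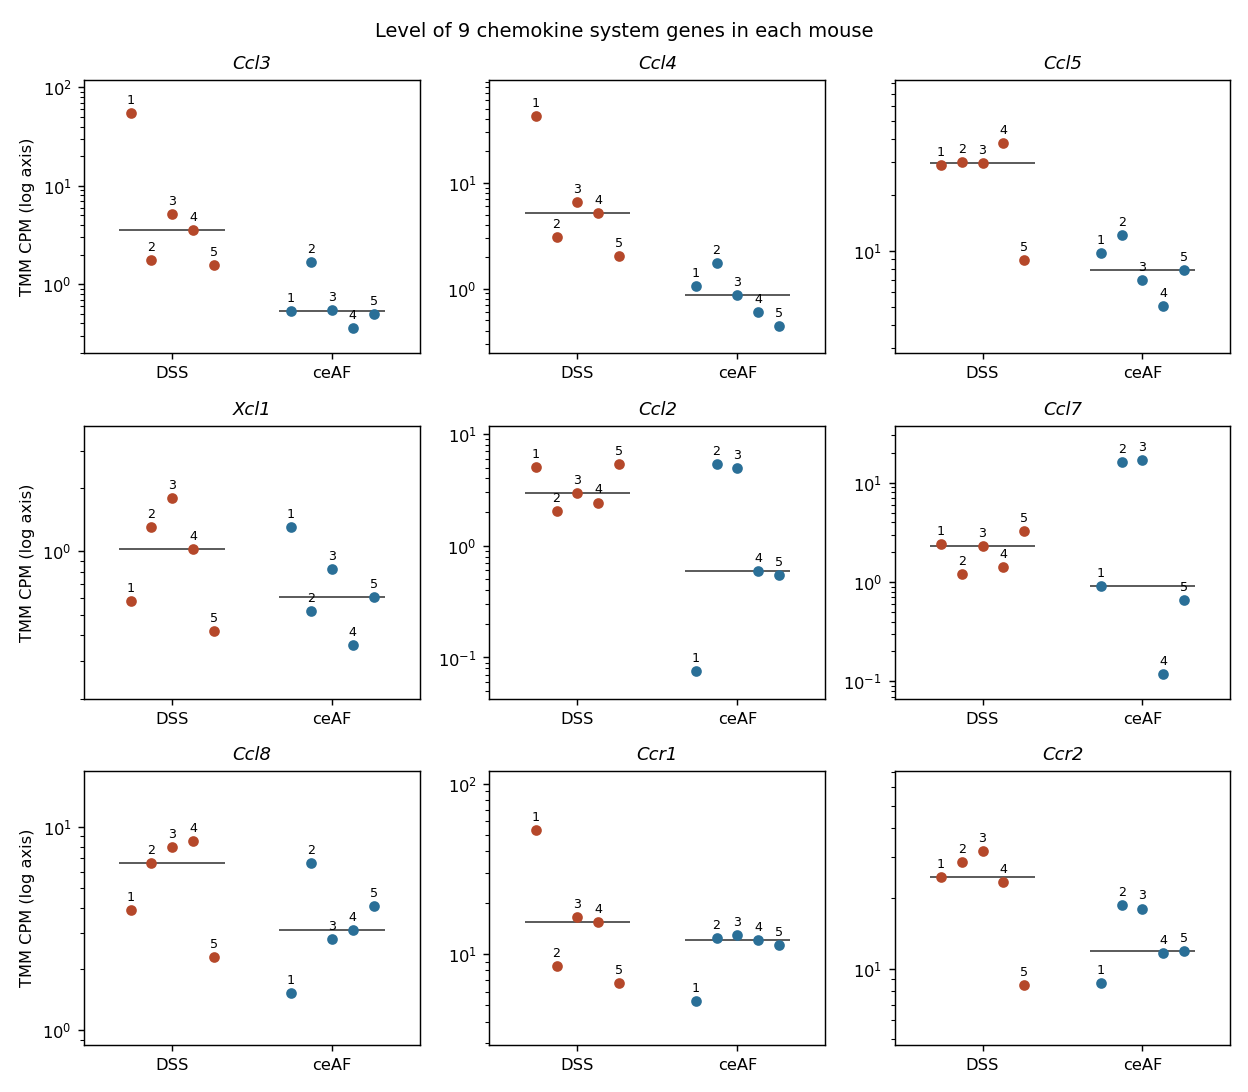
Level of each gene in each mouse, in TMM-normalized CPM on a log axis that differs between panels, with DSS mice in red, ceAF mice in blue, mouse numbers above the points and the group median as a line. DSS-1 stands above the other DSS mice in *Ccl3*, *Ccl4* and *Ccr1*, DSS-5 is the lowest DSS mouse in 7 genes, and ceAF-2 and ceAF-3 stand above the other 8 mice in *Ccl7*.

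*Ccl3* and *Ccl4* encode macrophage inflammatory proteins 1α and 1β, chemokines that activated macrophages, neutrophils and lymphocytes release. *Ccl3* (ENSMUSG00000000982) was at 54.4, 1.75, 5.21, 3.59 and 1.56 CPM in DSS-1 to DSS-5. In ceAF-1 to ceAF-5 it was at 0.534, 1.69, 0.548, 0.358 and 0.495 CPM. DSS-1 lay far above every other mouse, and ceAF-2 above DSS-5, so that the groups overlapped by this pair of mice. The means were 13.3 ± 23.0 and 0.726 ± 0.546 CPM (SD, n = 5 mice each), with a log2 fold change of −4.19 (SE 1.10). Without DSS-1 it was −2.05 (SE 0.52), and over the fits that left out another mouse it went down to −4.73. The 5 ceAF mice together held 58 *Ccl3* reads, 6 to 26 per mouse, so that counting error was large in this group.

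*Ccl4* (ENSMUSG00000018930) was at 42.8, 3.10, 6.65, 5.19 and 2.04 CPM in DSS-1 to DSS-5. It was at 1.07, 1.76, 0.877, 0.597 and 0.440 CPM in ceAF-1 to ceAF-5. The order of the DSS mice was the same as for *Ccl3*, and ceAF-2 was again the highest ceAF mouse. The log2 fold change was −3.66 (SE 0.87), and −2.16 (SE 0.45) without DSS-1. The *Ccl3* and *Ccl4* levels varied together within the groups, with a Pearson correlation of the log2 levels of 0.97 over 10 mice after subtracting the group means. Without DSS-1 the correlation was 0.89 over 9 mice.

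*Ccl5* encodes RANTES, a ligand of CCR1 that T cells and NK cells produce and that draws T cells, monocytes and eosinophils. *Ccl5* (ENSMUSG00000035042) was at 29.0, 29.9, 29.8, 37.8 and 8.94 CPM in DSS-1 to DSS-5. It was at 9.69, 12.2, 6.96, 5.07 and 7.86 CPM in ceAF-1 to ceAF-5. DSS-1 to DSS-4 lay above every ceAF mouse, and DSS-5 lay among the ceAF mice. The means were 27.1 ± 10.8 and 8.35 ± 2.71 CPM, with a log2 fold change of −1.70 (SE 0.35). Its log2 fold change was −1.67 without DSS-1, nearly as with all mice, and −1.91 without DSS-5.

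*Xcl1* encodes lymphotactin, which NK cells and CD8 T cells release and which binds XCR1 on cross-presenting dendritic cells. *Xcl1* (ENSMUSG00000026573) had between 7 and 30 reads in the DSS mice and between 6 and 17 in the ceAF mice. The means were 1.02 ± 0.555 and 0.721 ± 0.363 CPM, the groups overlapped widely, and the log2 fold change was −0.52 (SE 0.45). Its difference ranged from −0.82 to −0.21 when each mouse was left out in turn. An antisense gene, *Gm20743*, overlaps *Xcl1* and held 84 reads against 146 for *Xcl1* over the 10 mice. Whether the counting used strand is not given in the sources used here, so reads of *Xcl1* and its antisense partner may not be told apart.

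*Ccl2* and *Ccl7* encode monocyte chemoattractant proteins 1 and 3, the main ligands of CCR2. *Ccl2* (ENSMUSG00000035385) was at 5.04, 2.05, 2.93, 2.43 and 5.34 CPM in DSS-1 to DSS-5. In ceAF-1 to ceAF-5 it was at 0.0763, 5.40, 4.99, 0.597 and 0.550 CPM, the lowest value coming from 1 read. The ceAF mice thus took levels on either side of the DSS range: ceAF-2 lay just above it, ceAF-3 near its upper end, and ceAF-1, ceAF-4 and ceAF-5 lay below every DSS mouse. The log2 fold change was −0.61 (SE 0.79), between −1.15 without ceAF-2 and −0.31 without ceAF-1 when each mouse was left out.

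*Ccl7* (ENSMUSG00000035373) was at 2.43, 1.20, 2.33, 1.41 and 3.30 CPM in DSS-1 to DSS-5. It was at 0.916, 16.2, 17.2, 0.119 and 0.660 CPM in ceAF-1 to ceAF-5. As for *Ccl2*, ceAF-2 and ceAF-3 were the highest ceAF mice, and here they exceeded every DSS mouse several fold. They held 249 and 313 reads, against 22 to 55 in the DSS mice and 2 to 12 in ceAF-1, ceAF-4 and ceAF-5. The log2 fold change was therefore positive, at 1.72 (SE 1.02), whereas the median level was lower in the ceAF group, at 0.916 against 2.33 CPM. The positive value was 1.17 without ceAF-2 and 1.06 without ceAF-3, and on log2(FPKM + 0.1) values it was −0.0079.

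Per length, *Ccl7* and *Ccl2* stood at similar levels in the DSS mice, with a ratio of *Ccl7* to *Ccl2* FPKM between 0.687 and 1.13. The ratio was 4.27 in ceAF-2, 4.89 in ceAF-3 and 1.73 in ceAF-5. In ceAF-1 and ceAF-4, 1 of the 2 genes had fewer than 3 reads, and no ratio is given. The within-group correlation of *Ccl2* and *Ccl7* was 0.79 over 10 mice.

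*Ccl8* encodes monocyte chemoattractant protein 2, which in mice acts on CCR8. *Ccl8* (ENSMUSG00000009185) was at 3.88, 6.65, 7.96, 8.52 and 2.28 CPM in DSS-1 to DSS-5. It was at 1.53, 6.64, 2.80, 3.10 and 4.07 CPM in ceAF-1 to ceAF-5. Here DSS-1 was not high, DSS-5 was low, and the groups overlapped. The log2 fold change was −0.69 (SE 0.43), between −1.0 without ceAF-2 and −0.50 without ceAF-1.

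Of the receptors, CCR1 binds CCL3, CCL5 and CCL7 and is carried by neutrophils, monocytes and macrophages. *Ccr1* (ENSMUSG00000025804) was at 53.7, 8.54, 16.5, 15.4 and 6.72 CPM in DSS-1 to DSS-5. It was at 5.27, 12.4, 13.0, 12.1 and 11.3 CPM in ceAF-1 to ceAF-5. DSS-1 was far above the other mice and ceAF-1 was the lowest, while ceAF-2 to ceAF-5 lay within the range of the other DSS mice. The log2 fold change of −0.90 (SE 0.52) went to −0.12 (SE 0.32) without DSS-1. The *Ccr1* level followed that of *Ccl3* among the mice, with a within-group correlation of 0.86 over 10 mice and 0.55 over the 9 mice without DSS-1.

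CCR2 is the receptor by which monocytes leave the bone marrow and enter inflamed tissue, and subsets of T cells carry it as well. *Ccr2* (ENSMUSG00000049103) was at 24.7, 28.6, 31.9, 23.6 and 8.46 CPM in DSS-1 to DSS-5. It was at 8.70, 18.7, 18.1, 11.7 and 11.9 CPM in ceAF-1 to ceAF-5. DSS-1 to DSS-4 lay above every ceAF mouse, as for *Ccl5*, while in *Ccr2* DSS-5 was the lowest of the 10 mice. The log2 fold change was −0.76 (SE 0.33), −0.74 without DSS-1 and −0.96 without DSS-5. Within the groups *Ccr2* varied with *Ccl8*, at a correlation of 0.78, and with *Ccl5*, at 0.74.

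**Figure D2:**
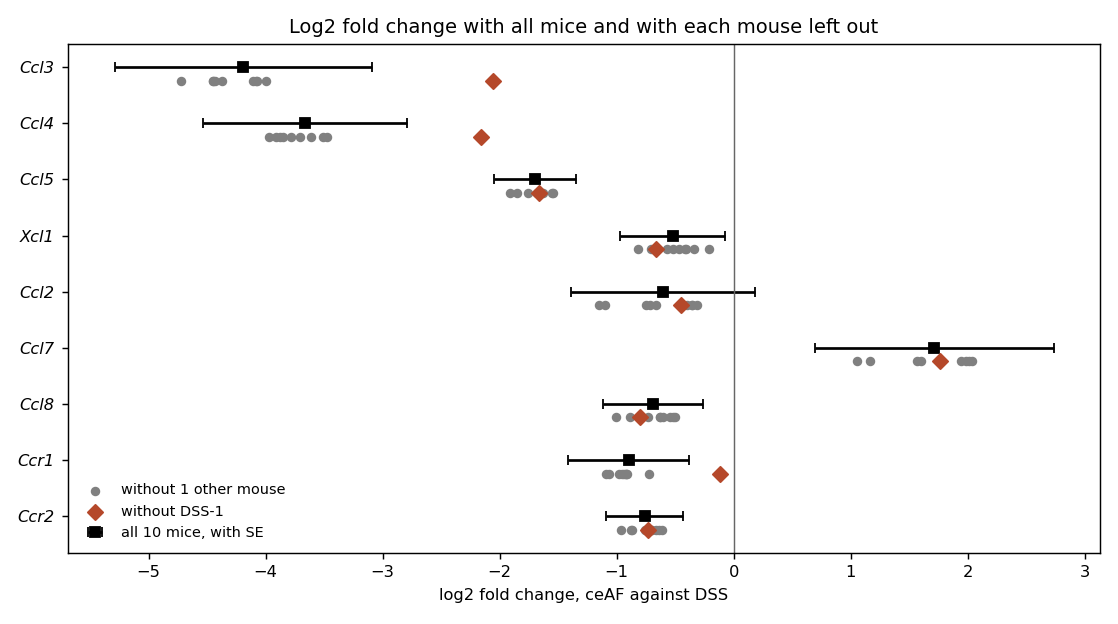
Log2 fold change of each gene, ceAF against DSS, with all 10 mice (black squares, bars of 1 SE), without DSS-1 (red diamonds) and without each of the other mice (grey points). *Ccl3*, *Ccl4* and *Ccr1* move toward 0 without DSS-1, to −2.05, −2.16 and −0.12, and *Ccl7* is above 0 in all fits shown.

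In FPKM the median order in the DSS group was *Ccl5* at 31.4, *Ccl8* at 13.1, *Ccl4* at 7.48, *Ccr1* at 5.19 and *Ccl3* at 4.46. *Ccr2* at 3.79, *Ccl7* at 2.99, *Ccl2* at 2.65 and *Xcl1* at 1.87 followed. *Ccl5* ranked at the top in 4 of 5 DSS mice, and in DSS-1 it was below *Ccl3* at 73.8 and *Ccl4* at 67.4. In the ceAF group the medians were 8.71 for *Ccl5*, 6.34 for *Ccl8*, 4.33 for *Ccr1*, 1.88 for *Ccr2*, 1.29 for *Ccl4* and 1.23 for *Xcl1*. *Ccl7* at 1.02, *Ccl3* at 0.69 and *Ccl2* at 0.55 had the lowest medians. By mouse, *Ccl5* ranked at the top in 2 ceAF mice, *Ccl8* in 1, and *Ccl7* in 2, ceAF-2 at 20.0 and ceAF-3 at 20.8 FPKM. Neighbours in these orders lay within the SD of the mice, except *Ccl5* and *Ccl8* in the DSS group and *Ccr1* and *Ccr2* in the ceAF group.

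The CC ligand genes sit in clusters on chromosome 11 in the positions of the deposited table, whose genome build is not given in the sources used here. Of the 9 genes, 0 had the same start as in GRCm38, so these positions cannot be compared with the promoter positions below. *Ccl2* (81926397 to 81928279), *Ccl7* (81936538 to 81938351) and *Ccl8* (82006011 to 82007625) lie on the forward strand with *Ccl11* and *Ccl12* between *Ccl7* and *Ccl8*, in 81229 bases. After a gap of 1408978 bases, which holds *Ccl1*, come *Ccl5* (83416604 to 83421344), *Ccl9*, *Ccl6* and *Ccl3* (83538670 to 83540181) on the reverse strand and *Ccl4* (83553410 to 83555509) on the forward strand. *Ccr1* (123762161 to 123768729, reverse) and *Ccr2* (123901987 to 123913594, forward) lie on chromosome 9, and *Xcl1* (164759213 to 164763096, reverse) on chromosome 1. Neighbours in a cluster differed in size of difference, since *Ccl6* and *Ccl9*, which lie between *Ccl5* and *Ccl3*, had log2 fold changes of −0.41 and −0.73. An unnamed gene (ENSMUSG00000120024) on the opposite strand overlaps *Ccl3*, with 113 reads against 1201, and 74 of the 113 were in DSS-1.

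**Figure D3:**
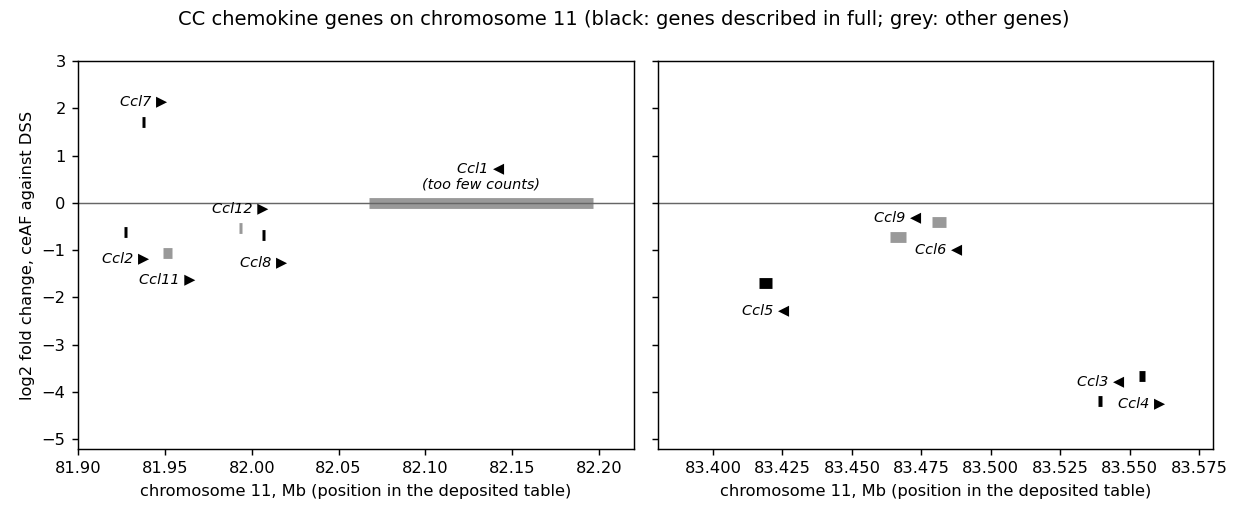
Log2 fold change, ceAF against DSS, of the CC chemokine genes of chromosome 11 by position in the deposited table (Mb), with gene bodies drawn to scale, arrowheads for the strand, black for genes described in full and grey for others. *Ccl7* is above 0 beside *Ccl2* at −0.61, and *Ccl3* and *Ccl4* lie lowest, at −4.19 and −3.66.

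Promoter sequences from RefSeq (GRCm38.p6), 250 bases before to 50 after the gene start, were matched for 5 of the 9 genes, *Ccl3*, *Ccr1*, *Ccl8*, *Ccr2* and *Xcl1*, and not for *Ccl4*, *Ccl5*, *Ccl2* and *Ccl7*. The 5 windows were searched on both strands for an NF-κB-type motif (GGGA and CC with any 4 bases between them), an AP-1-type motif (TGANTCA), an interferon response-type motif (GAAA and GAAA with any 2 bases between them) and a TATA box (TATAAA), none of which overlapped another in these windows. Of 32851 promoters, 20.7% held the NF-κB-type, 7.81% the AP-1-type and 3.44% the interferon response-type motif, and 13.6% held the TATA box. *Ccr1* held 1 NF-κB-type match and *Ccl8* 1 TATAAA match, and these letters are not in the windows of *Ccl3*, *Ccr2* and *Xcl1*. The windows of *Ccl3* and *Ccr1*, whose correlation of 0.86 was 0.55 without DSS-1, and of *Ccl8* and *Ccr2*, with 0.78 and 0.84, are shown as pairs whose levels varied together, from 5′ to 3′ on the strand of the gene, at chr11:83649329-83649628 (reverse), chr9:123968643-123968942 (reverse), chr11:82114935-82115234 (forward) and chr9:124101933-124102232 (forward). Capitals mark the matches, and a match is a description of the letters only.
Ccl3: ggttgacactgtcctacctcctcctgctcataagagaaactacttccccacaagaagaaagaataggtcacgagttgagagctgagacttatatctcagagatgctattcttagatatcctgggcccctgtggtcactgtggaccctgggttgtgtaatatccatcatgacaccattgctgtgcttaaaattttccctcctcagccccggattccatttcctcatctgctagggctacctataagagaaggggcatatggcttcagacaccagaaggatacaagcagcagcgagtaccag
Ccr1: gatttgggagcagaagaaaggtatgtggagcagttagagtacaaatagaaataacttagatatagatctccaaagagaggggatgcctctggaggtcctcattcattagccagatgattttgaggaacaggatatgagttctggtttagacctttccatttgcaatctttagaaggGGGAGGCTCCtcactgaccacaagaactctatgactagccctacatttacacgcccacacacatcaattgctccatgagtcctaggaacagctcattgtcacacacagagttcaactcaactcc
Ccl8: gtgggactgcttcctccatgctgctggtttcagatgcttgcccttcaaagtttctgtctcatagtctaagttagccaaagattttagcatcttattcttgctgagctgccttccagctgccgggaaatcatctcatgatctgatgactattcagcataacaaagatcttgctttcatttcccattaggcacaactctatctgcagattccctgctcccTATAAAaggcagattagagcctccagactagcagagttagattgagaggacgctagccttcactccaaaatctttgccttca
Ccr2: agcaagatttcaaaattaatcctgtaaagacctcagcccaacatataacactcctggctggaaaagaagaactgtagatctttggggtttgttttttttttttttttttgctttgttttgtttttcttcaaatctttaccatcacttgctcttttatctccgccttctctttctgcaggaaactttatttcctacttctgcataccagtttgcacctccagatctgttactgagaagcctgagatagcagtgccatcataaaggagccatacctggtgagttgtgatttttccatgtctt

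The other genes of the chemokine system were described from lists of ligands, receptors and signaling genes, 79 in all, of which 66 were tested. After adjustment 0 of the 66 were called in edgeR's quasi-likelihood test, and DESeq2 called *Cxcr6*. At an unadjusted p-value under 0.05, 15 of the 66 differed, all 15 lower in the ceAF group, beside 607 of all genes tested (3.67%) in that direction and 1146 (6.93%) in either direction. Without DSS-1 the count was 6, beside 712 of all genes (4.26%) in either direction. The median log2 fold change of the 66 was −0.43, 58 were lower, and without DSS-1 the median was −0.24.

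Of the other CC and XC ligands 8 of 10 tested genes were lower, with a median of −0.50, and *Ccl11*, *Ccl21a* and *Ccl6* were among the 15. *Ccl6* was the highest of this list with FPKM of 93.4 ± 16.1 in DSS mice and 69.9 ± 17.4 in ceAF mice (SD, n = 5 each). The epithelial ligand gene *Ccl28* was at 160 ± 93.6 and 191 ± 59.6 CPM. The eosinophil attractant gene *Ccl11* was at 2.88 ± 1.75 and 1.38 ± 0.451 CPM. *Ccl21a* was at 11.8 ± 10.4 and 3.91 ± 2.03 FPKM, and its log2 fold change of −1.55 was −0.87 without DSS-1. It is also uncertain because 71.6% of the 50-base stretches of its transcript also stand in other genes such as *Ccl21b*. In the 9 genes described above this share was 0 except for *Ccr2*, with 1.91%.

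Of the other CC and XC receptors 7 of 10 tested genes were lower, with a median of −0.45, and without DSS-1 it was 6 of 10 and −0.25. Without DSS-5 all 10 were lower, with a median of −0.56, and the median was −0.76 without ceAF-3 and −0.28 without ceAF-4. The decoy receptor gene *Ackr1* was among the 15, with CPM of 1.99 ± 1.01 in DSS mice and 0.855 ± 0.195 in ceAF mice, though 20.4% of its 50-base stretches also stand in *Cadm3*. *Ccr7*, which guides T cells and dendritic cells to lymphoid tissue, was at 3.26 ± 4.12 CPM in DSS mice and 1.19 ± 1.01 CPM in ceAF mice, and its log2 fold change of −1.43 was −0.23 without DSS-1. *Ccrl2* was at 9.29 ± 7.36 and 6.70 ± 4.95 CPM, and its log2 fold change of −0.47 was 0.13 without DSS-1. *Xcr1*, the receptor gene for the *Xcl1* product, had a log2 fold change of −1.06 and is also 1 of the dendritic cell markers below.

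Of the CXC and CX3C ligands and receptors 19 of 20 tested genes were lower, with a median of −0.49. Without DSS-1, 15 of 20 were lower with a median of −0.34, and without ceAF-1, 17 of 20 with a median of −0.32. The neutrophil attractant gene *Cxcl2* averaged 111 ± 218 CPM in DSS mice and 4.92 ± 3.92 in ceAF mice, and 501 CPM of it stood in DSS-1. *Cxcl3* and the neutrophil receptor gene *Cxcr2* had the same pattern, with maxima of 95.4 and 45.7 CPM in DSS-1 and ceAF means of 0.605 and 0.652 CPM. The receptor genes of activated T cells, *Cxcr3* and *Cxcr6*, were at 3.92 ± 1.53 and 8.72 ± 3.07 CPM in the DSS group, and at 2.10 ± 1.08 and 3.30 ± 1.52 CPM in the ceAF group. For these the differences were about as large without DSS-1, with log2 fold changes of −0.98 and −1.48. *Cxcl12* was at 22.3 ± 3.73 and 15.3 ± 4.93 CPM, and the B cell attractant gene *Cxcl13* at 33.9 ± 15.6 and 31.1 ± 25.4 CPM, with a log2 fold change of −0.12 that was 0.19 without DSS-1. *Cx3cl1* was at 103 ± 5.36 and 85.2 ± 22.3 CPM.

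Of the signaling genes below the receptors 24 of 26 were lower, with a median of −0.22, which was −0.13 without DSS-1 and −0.35 without DSS-5. The leukocyte genes *Rac2*, *Itgal*, *Itgb2* and *Dock2* were among the 15, as was *Arrb2*. In this order their log2 fold changes were −1.41, −1.20, −1.04, −0.86 and −0.75. Without DSS-1 they were −0.98, −1.08, −0.70, −0.50 and −0.46, and *Itgb2* and *Dock2* no longer had an unadjusted p-value under 0.05. *Rac2* was at 49.4 ± 29.7 and 18.5 ± 6.55 CPM, and *Itgal*, which encodes a chain of the integrin LFA-1, at 23.3 ± 6.06 and 10.1 ± 4.33 CPM. The genes *Rac1*, *Gnb1* and *Gnai2*, which most cells express, were at 572 ± 18.5, 455 ± 25.1 and 302 ± 51.9 CPM in the DSS group. They were at 543 ± 44.7, 436 ± 44.6 and 268 ± 26.7 CPM in the ceAF group.

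Marker genes of the cells that make or follow these chemokines differed between the mice as well, and their part in the results above was not tested. The ceAF group had lower levels of all 10 T cell markers, at a median difference of −1.23 on the log2 scale. Their summed level was 117, 116, 119, 126 and 43.5 CPM in DSS-1 to DSS-5 and 42.0, 65.6, 51.7, 26.4 and 34.1 CPM in ceAF-1 to ceAF-5. DSS-1 to DSS-4 were thus above every ceAF mouse and DSS-5 was not, the same arrangement as for *Ccl5* and *Ccr2*. The most abundant marker, *Trbc2*, averaged 23.7 ± 7.66 FPKM in DSS mice and 9.69 ± 4.07 in ceAF mice, and is uncertain, since 44% of its 50-base stretches also stand in *Trbc1*.

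All 11 tested cytotoxic T and NK cell markers of 12 were lower, with a median of −1.02. Their sum was 88.7, 198, 195, 190 and 74.7 CPM in DSS-1 to DSS-5 and 99.7, 117, 72.2, 40.7 and 46.8 CPM in ceAF-1 to ceAF-5. The log2 fold changes of the 11 ran from −2.35 to −0.21. The most abundant was *Gzma*, at 29.9 ± 14.6 and 20.8 ± 7.63 FPKM. *Ncr1*, which was not tested, had 0 to 10 reads per mouse. Its mean was higher in the ceAF group, at 0.350 ± 0.204 CPM against 0.161 ± 0.192 CPM in the DSS group.

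The 12 monocyte and macrophage markers were all lower, with a median of −0.54, which was −0.28 without DSS-1 and −0.33 without ceAF-1. Their sum was 788, 321, 349, 347 and 311 CPM in DSS-1 to DSS-5 and 127, 314, 361, 251 and 346 CPM in ceAF-1 to ceAF-5. In this sum DSS-1 was highest and ceAF-1 lowest, as in *Ccr1*, and ceAF-2 and ceAF-3 did not stand apart as they did in *Ccl7*. A mean over the 12 markers of the log2 level, less each gene's mean over the mice, weighs the genes alike. By it ceAF-2 (0.126) and ceAF-3 (0.349) were above ceAF-1 (−1.27), ceAF-4 (−0.418) and ceAF-5 (−0.237). Both lay within the DSS range of −0.106 to 0.975. The most abundant marker was *Lyz2*, at 99.2 ± 52.4 and 62.2 ± 32.3 FPKM.

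Of the 10 neutrophil markers, all 9 that were tested were lower, with a median of −3.94, and of −1.07 without DSS-1. Their sum was 2049 CPM in DSS-1, 128 to 555 in the other DSS mice, 22.0 in ceAF-1 and 140 to 254 in the other ceAF mice. *Ly6g* was the most abundant over all 10 mice, at 243 ± 163 FPKM in DSS mice and 153 ± 93.2 in ceAF mice, and in the DSS mice alone *S100a9* averaged more, at 321 ± 599 FPKM. *Cxcr2* was in this list and in that of the receptors, and *Mmp8* was at 0 in at least 1 mouse. The sum was highest in DSS-1, as were *Ccl3*, *Ccl4*, *Ccr1*, *Cxcl2* and *Cxcr2*. *Ly6g* differed from the rest of the list, with its highest level, 482 CPM, in DSS-5, a ceAF mean of 143 ± 86.8 CPM that makes up most of the ceAF sums, and log2 fold changes of −0.67 with all mice, −0.66 without DSS-1 and −0.17 without DSS-5. The part of these cells in the level of any chemokine gene was not tested.

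The 7 B cell markers were all lower with all mice and all higher without DSS-1, with medians of −0.69 and 0.61, and the median was −1.20 without ceAF-5 and −0.41 without ceAF-1 or ceAF-4. DSS-1 had the highest sum, 220 CPM, against a range of 8.09 to 109 CPM over the remaining 9 mice. Their most abundant gene, *Cd79a*, was at 11.6 ± 12.4 and 6.91 ± 6.08 FPKM. The 7 tested of 8 dendritic cell markers had a median of −0.27, between −0.43 without DSS-5 and −0.12 without ceAF-1, with *Itgax* the most abundant at 4.0 ± 1.40 and 3.33 ± 1.40 FPKM, and *Cd209a* at 0 in at least 1 mouse.

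Of the tissue's own cells, the 7 fibroblast markers had a median of −0.21, between −0.44 without ceAF-4 and 0.03 without DSS-1, with 2 of 7 lower in the latter. The median of the 6 smooth muscle markers was −0.19, between −0.41 without ceAF-2 and −0.0052 without DSS-5. For the 6 endothelial markers it was −0.26, between −0.57 without ceAF-4 and −0.08 without ceAF-1. The most abundant genes of these 3 lists were *Col3a1*, at 23.6 ± 8.67 FPKM in DSS mice and 23.1 ± 11.8 in ceAF mice, *Actg2*, at 228 ± 91.0 and 181 ± 86.0, and *Pecam1*, at 4.71 ± 1.76 and 3.39 ± 1.70. The fibroblast sum was highest in DSS-1, at 1096 CPM, 175 CPM in ceAF-1 and 456 to 832 CPM in the other mice. The endothelial sum of DSS-1, 113 CPM, was the highest of the DSS mice. The 11 colon epithelium markers were all tested and none was at 0 in any mouse, with 6 lower, a median of −0.01, between −0.06 without DSS-5 and 0.14 without ceAF-4, and *Car1* at 2989 ± 2520 and 2566 ± 3449 FPKM. Of 6 small intestine markers 3 were tested, with a median of −0.04, between −1.62 without ceAF-1 and 0.32 without DSS-2. *Fabp6* was their most abundant gene over all 10 mice, at 29.6 ± 38.2 and 14.0 ± 10.7 FPKM, while in the ceAF mice alone *Alpi* averaged more, at 19.3 ± 17.9 FPKM. The genes *Apoa4*, *Lct* and *Defa24* were at 0 in at least 1 mouse.

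**Figure D4:**
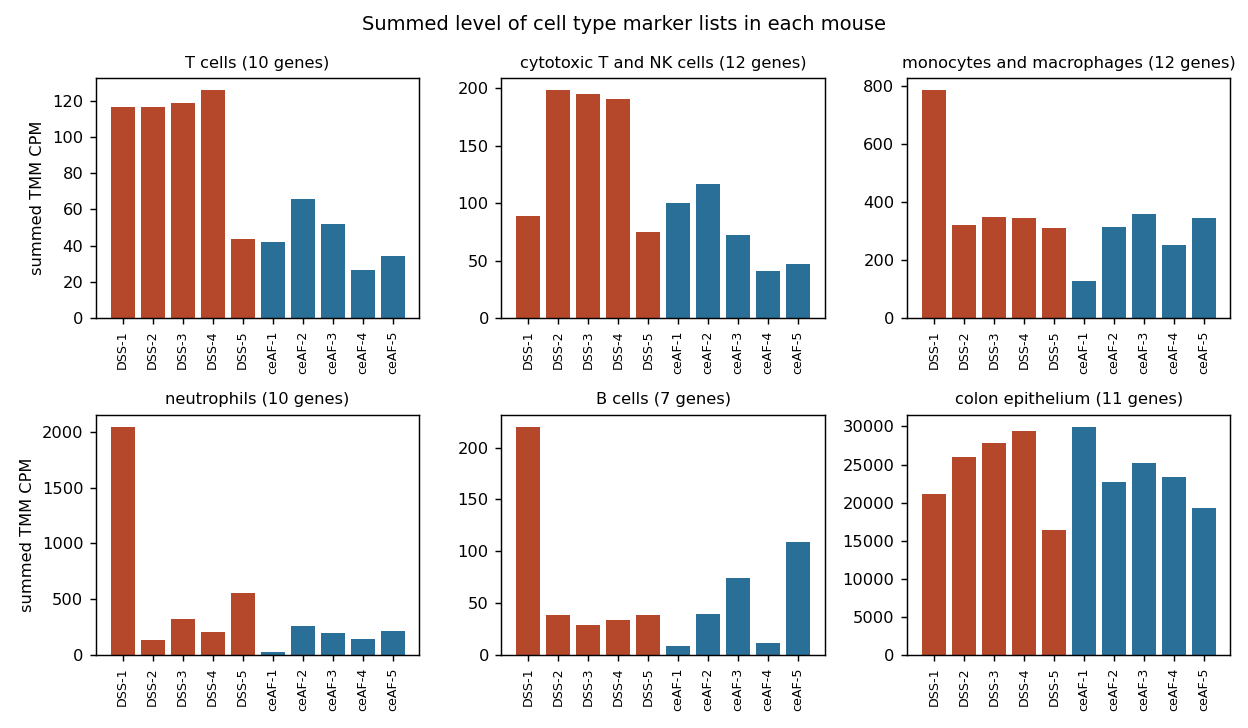
Summed TMM-normalized CPM of marker gene lists in each mouse, with DSS mice in red and ceAF mice in blue and the number of genes in each title. T cell markers are at 116 to 126 CPM in DSS-1 to DSS-4 and at 26.4 to 65.6 CPM in DSS-5 and the ceAF mice, while DSS-1 is highest in the monocyte and macrophage, neutrophil and B cell markers drawn here.

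Among the 16355 tested genes with a symbol, those whose log2 level varied most like each chemokine gene were found by Pearson correlation over the 10 mice after subtracting group means. For *Ccl3* these were *Ccl4*, *AB124611* and *Alox5ap*, at 0.95 to 0.97, and for *Ccl4* they were *Ccl3*, *Fcer1g* and *Zwint*, at 0.95 to 0.97. Without DSS-1 these were 0.89, 0.86 and 0.78 for *Ccl3*, and 0.89, 0.85 and 0.87 for *Ccl4*. *Alox5ap* was at 75.5 CPM in DSS-1 and at 2.06 to 9.52 CPM in the other mice. For *Ccr1* they were *Il1r2*, *Lilrb4b* and *Pirb*, at 0.97 to 0.98, and all 3 were highest in DSS-1, at 121, 322 and 48.2 CPM. *Pirb* shares 34% of its 50-base stretches with other genes and is uncertain, and *Lilrb4b* was not in the transcripts used and could not be checked.

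The genes most like *Ccl5* were *Zap70*, *Psmd4* and *Pym1*, at 0.95 to 0.98, and those most like *Ccr2* were *Il12rb1*, *Lair1* and *Cst7*, at 0.96 to 0.98. *Zap70* averaged 8.34 CPM in DSS mice and 3.46 in ceAF mice, with DSS-5 at 2.58, so that it had the arrangement of *Ccl5* over the mice. The genes most like *Ccl2* were *Rdx*, *Arhgap10* and *Parm1*, at 0.95 to 0.96. Those most like *Ccl7* were *4930599N23Rik*, *Ly6a* and *Rap1a*, at 0.92 to 0.98. *Ly6a* was at 1733 and 1656 CPM in ceAF-2 and ceAF-3 and at 538 to 985 CPM in the other ceAF mice. The DSS mice were at 1178 to 1520 CPM of *Ly6a*, so that ceAF-2 and ceAF-3 did not exceed them several fold as in *Ccl7*. Of the 50-base stretches of *Ly6a*, 19.0% also stand in other genes such as *Ly6c2*. For *Ccl8* they were *Ptger1*, *Gm37169* and *2510009E07Rik*, at 0.93 to 0.94, and for *Xcl1* they were *Nr1d2*, *Slc16a9* and *Sult1d1*, at 0.95 to 0.99. With 10 mice and this many genes, correlations of this size are a description of these libraries.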

How the data were processed

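The members and gene lists were chosen with earlier results of these data known. Poly(A) RNA of 10 colons was sequenced by a company, and the submitters' processing notes name cutadapt 1.9.1 and HISAT2 2.2.1. The authors deposited whole-number counts of reads per gene, without normalization, for 56691 genes, and FPKM values, which equal the count divided by exonic length and library total within 0.01 for 100% of values. The genome build and counting program are not given in the sources used here.

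Mice were grouped and numbered from the sample labels. Differences were computed with edgeR 4.0.16 in R 4.3.3: filterByExpr with a minimum count of 10, TMM scaling, the quasi-likelihood test, two-sided, and Benjamini-Hochberg adjustment over 16545 genes. The script was tested on simulated data. The SE is the log2 fold change divided by the square root of F. Log2 levels used a prior count of 1. Alternatives used DESeq2 1.42.0 and limma 3.58.1, other filters and scalings, FPKM with pseudocounts of 1 and 0.1, the replicate number as a block, and leaving out each mouse. Shared 50-base stretches came from GENCODE transcripts of GRCm38. Figures were drawn with matplotlib in Python 3.11.15.

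Besides the 9 members, named genes were taken, not exhaustively, from those of the other pathway lists at an unadjusted p-value under 0.05 or among the 3 of highest mean FPKM in their list, the 3 tested genes most like each member, and the most abundant gene of each marker list. Genes named for their position or as a receptor of a member's product were added after their values were seen. At 14676471 to 19901549 reads per mouse, genes with few reads, such as *Xcl1* with 6 to 30, carry a large counting error.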

Additional observations from a re-analysis of the deposited data

Results flagged for a closer look

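For each of the 9 genes and each group of 5 mice, 18 groups in all, the gap between the highest or lowest mouse and its nearest neighbour was taken as a fraction of that group's range, in TMM-normalized CPM. For normal, independent values chance puts about 1 in 20 groups beyond the limit of 0.71, or 0.9 of 18, but CPM are skewed and some of these genes vary together. DSS-1 stood apart as the highest DSS mouse in *Ccl3* (0.931 of the range), *Ccl4* (0.887) and *Ccr1* (0.791). The ceAF-2 mouse was the highest ceAF mouse in *Ccl3* (0.857), and ceAF-1 was the lowest in *Ccr1* (0.784). On log2 CPM the gaps of DSS-1 were under the limit, at 0.661 (*Ccl3*), 0.612 (*Ccl4*) and 0.567 (*Ccr1*), and those of ceAF-2 (0.725) and ceAF-1 (0.848) were above it. The highest DSS mouse in these 3 genes was also the highest of the 10 mice in the summed neutrophil, monocyte and macrophage, B cell and fibroblast markers, and the highest DSS mouse in the endothelial markers, and their part in the result was not tested. *Ccl7* was not among these, because ceAF-2 and ceAF-3 were both high.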

How the results depend on the processing

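The count of genes called was 0 in all alternatives except DESeq2, with 25, and the fits that left out a mouse, with 0 to 3, the 3 being without DSS-5. Of the other chemokine system genes, 15 had an unadjusted p-value under 0.05, and 6 (without DSS-1) to 19 (without DSS-5, 18 of them lower) when each mouse was left out, where the share of all genes was 4.26% and 9.59%, against 6.93% with all mice and 11.2% without ceAF-1. Mice of the 2 groups share replicate numbers only, and the correlations of same-numbered mice were −0.249, −0.136, −0.00428, −0.159 and 0.286. With the replicate number as a block, 0 genes were called, 9 of the other chemokine system genes and 694 of all genes had an unadjusted p-value under 0.05, 8 members were lower and their median log2 fold change was −0.70. The members lower in the ceAF group were 6 to 9 over all alternatives, the 6, of 7, with a minimum count of 30, where *Ccl3* and *Xcl1* were not tested. They were 8 whichever mouse was left out. The median log2 fold change of the members was −1.0 (without ceAF-2) to −0.66 (without DSS-3) when each mouse was left out, and −0.63 on log2(FPKM + 1). *Ccl3* and *Ccl4* were −2.11 and −2.23 on log2(FPKM + 1) and −2.11 and −2.29 with voom sample weights, and *Ccl2* was between −1.52 on log2(FPKM + 0.1) and −0.10 with voom sample weights. *Ccr1* was −0.12 with voom sample weights and −0.44 with the block, and *Xcl1* was −0.93 with voom sample weights and −0.31 on log2(FPKM + 1). With voom sample weights the median of the other chemokine system genes was −0.23, with 54 of 66 lower. In that fit the CXC and CX3C genes had a median of −0.28, with 14 of 20 lower, and the other CC and XC ligands one of −0.20. *Ccl7* changed sign, to −0.0079 on log2(FPKM + 0.1), and was 0.09 with the block. The cause was not tested. Depth limits *Xcl1*, with 146 reads over the 10 mice, and *Ccl2* and *Ccl7*, with 1 and 2 reads in their lowest mice.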
